A study of Mus musculus with 6 samples.

Results

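DNA replication and S phase genes were examined in MLE-12 cells exposed to cigarette smoke extract (CSE). The set held 35 genes chosen by name, of 36047 genes with a transcript in the files, and all 35 were abundant enough to be tested. They were divided by role into 6 regulators of cell cycle entry (E2f1, E2f2, Rb1, Ccnd1, Ccne1 and Ccne2) and 29 genes of the replication machinery. The regulators were mixed, with the cyclin E gene Ccne1 higher and the cyclin D gene Ccnd1 and E2f2 lower in CSE, whereas the main test called no machinery gene. Ccne1 and Ccnd1 kept their calls under all 18 alternative fits, and E2f2 under 9 of 18.

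MLE-12 is a mouse lung epithelial line, labelled wild type, that was immortalised with a viral large T antigen driven by the surfactant protein C promoter. Cultures at 30% density received either an equal volume of PBS (3 libraries) or 5% CSE of optical density 2 (3 libraries), a solution of smoke constituents, and polyA RNA was taken after 24 h. All 6 samples are labelled as this 1 cell line, but the RNA extraction text speaks of lung tissue, a mismatch that the labels do not resolve. The labels do not state separate cultures, so the p-values rest on the spread among 3 libraries a group, and that spread may be technical. In bulk RNA, a smaller share of cells in a cell cycle phase and less RNA per cell cannot be told apart.

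In late G1, cyclin D with CDK4 or CDK6 and then cyclin E with CDK2 phosphorylate the retinoblastoma protein RB, which releases E2F transcription factors to induce the genes of DNA replication. The origin recognition complex, CDC6 and CDT1 load the ring-shaped MCM helicase onto origins, geminin restrains CDT1, and CDC45 with the GINS complex turns the loaded ring into an active helicase. Large T antigen binds RB and its relatives, so cells that carry it are known for E2F activity that depends less on cyclin D.

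Many genes of this group are textbook E2F targets, and RefSeq promoter windows (GRCm38.p6, 250 bases before to 50 after an annotated start) were matched by symbol for 27 of the 35. The letters searched were TTTCCCGC, TTTGGCGC, TTTCGCGC and TTTGCCGC, the forms of the E2F consensus, on both strands, where matches may overlap. They occurred in the windows of 11 of 27 members (40.7%), namely Cdc6, Cdt1, E2f2, Mcm3, Mcm5, Mcm6, Mcm7, Orc1, Pola1, Rfc3 and Uhrf1, against 2.60% of 27025 genes of every kind with a window. A match is a string of letters in a window set by RefSeq's start, and the base composition of the windows was not matched. The windows of the member that rose, a member that fell and 2 machinery genes that were not called are shown, with matches in capitals. Ccnd1, which also fell, had no matched window. The 2 machinery genes, Mcm6 and Tk1, were those whose CSE values all exceeded their PBS values. The Ccne1 window lies at chr7:38107441-38107740 (minus strand), that of E2f2 at chr4:136172024-136172323 (plus strand), that of Mcm6 at chr1:128359656-128359955 (minus strand) and that of Tk1 at chr11:117825965-117826264 (minus strand).
Ccne1: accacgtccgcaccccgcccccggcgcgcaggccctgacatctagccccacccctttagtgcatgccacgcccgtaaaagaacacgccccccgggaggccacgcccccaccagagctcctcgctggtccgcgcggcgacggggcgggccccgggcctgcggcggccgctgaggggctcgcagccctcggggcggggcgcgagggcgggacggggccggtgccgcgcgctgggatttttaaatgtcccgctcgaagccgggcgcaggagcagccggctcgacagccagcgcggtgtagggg
E2f2: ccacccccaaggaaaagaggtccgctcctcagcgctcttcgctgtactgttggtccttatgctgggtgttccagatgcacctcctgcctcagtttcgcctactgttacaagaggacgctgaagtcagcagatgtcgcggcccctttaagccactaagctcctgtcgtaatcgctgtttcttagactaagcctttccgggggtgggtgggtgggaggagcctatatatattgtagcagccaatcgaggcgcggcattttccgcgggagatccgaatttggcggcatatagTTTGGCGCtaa
Mcm6: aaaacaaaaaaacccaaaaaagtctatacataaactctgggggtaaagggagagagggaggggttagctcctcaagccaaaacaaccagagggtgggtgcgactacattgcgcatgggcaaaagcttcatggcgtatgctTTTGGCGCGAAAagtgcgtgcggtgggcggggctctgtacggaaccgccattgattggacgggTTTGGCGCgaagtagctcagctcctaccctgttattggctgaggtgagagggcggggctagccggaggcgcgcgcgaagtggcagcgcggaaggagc
Tk1: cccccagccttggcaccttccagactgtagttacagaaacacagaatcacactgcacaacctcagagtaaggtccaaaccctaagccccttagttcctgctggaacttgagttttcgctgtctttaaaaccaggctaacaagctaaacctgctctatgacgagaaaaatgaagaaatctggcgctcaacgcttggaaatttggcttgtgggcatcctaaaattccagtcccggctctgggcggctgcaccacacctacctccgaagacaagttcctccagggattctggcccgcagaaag

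The Mcm6 window held 3 matches, at 110, 106 and 47 bases before the start, of which the first 2 overlap. The E2f2 window, at the first of its 2 RefSeq starts, held 1, about 40 bases after the start, and the Ccne1 and Tk1 windows held none of these 4 strings. The letters TNGCGTG, the core of the element bound by the aryl hydrocarbon receptor, occurred for 3 of 27 members (Cdt1, Mcm2 and Rfc4, 11.1%, against 5.84% of all genes with a window), and TGACNNNGC, the core of the antioxidant element bound by NRF2, for 5 (Cdc6, Orc6, Pcna, Rfc3 and Rrm2, 18.5%, against 14.0%), both searched on both strands. The windows of Ccne1 and E2f2 held neither.

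The libraries held 12093009 to 24050167 estimated counts. The edgeR quasi-likelihood test called 1539 of 13451 genes (11.4%) at an adjusted p under 0.05, 581 higher (4.32%) and 958 lower (7.12%) in CSE. With 1 library left out the number was 963 (PBS replicate 3), 859 (CSE replicate 2) or 837 (CSE replicate 3) at the low end. Removing a GC and length trend shifted the balance to 882 higher and 870 lower, and limma on the log2(TPM + 1) scale to 224 and 774. Of 6 lung epithelial markers, Krt8, Krt19 and Nkx2-1 were at 98.7 TPM or more in every library. Epcam and Cdh1 were under 7 TPM and Krt18 under 1 TPM. The list summed to 1281 to 1396 TPM in PBS and 710 to 804 TPM in CSE (3 lower of 5 tested). Endothelial, leukocyte and ciliated marker lists each summed to under 7 TPM in every library, with Cdh5 at 0 in all 6. Fibroblast markers, chiefly Dcn, summed to 868 to 1126 TPM in PBS and 477 to 544 TPM in CSE. Of these 6 markers only 3 were tested, 1 of them higher and 2 lower, and Lum was at or near 0. The part of the marker shifts in the results was not tested.

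Of the 35 members, 3 were called (8.57%, against 11.4% of all genes), all of them among the 6 regulators. Values per library are given in normalised CPM (counts relative to library size, scaled by TMM factors), in the order of replicates 1 to 3, because fold changes were fitted on that scale. TPM, which divides by transcript length, is used for levels of different genes.

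Ccnd1 encodes cyclin D1, the growth factor-responsive partner of CDK4 and CDK6, and lies on chromosome 7 at 144929931 to 144939925 (GRCm38). Its level was 1842, 1362 and 1711 normalised CPM in PBS and 1128, 1120 and 1058 in CSE. Every CSE library was below every PBS library, and the PBS libraries were the more scattered. Ccnd1 fell by 0.57 ± 0.11 on the log2 scale (SE, n = 3 per group; edgeR adjusted p = 0.00543, 95% interval −0.81 to −0.34), from 732 to 466 TPM, and kept its call under all 18 alternatives. Of its 31-base words 28.1% also occur in LTO1, a gene on the opposite strand with 4045 counts in total, whose own change was −0.21 ± 0.09 (edgeR adjusted p = 0.156). Among the other D-type cyclins, the mean TPM of Ccnd2 was 416 in PBS and 348 in CSE (log2 change −0.18 ± 0.08), and that of Ccnd3 was 55.8 and 46.4 (−0.16 ± 0.08), neither called. Summed over the 3 D-type cyclin genes, the level was 1236, 1041 and 1335 TPM in PBS and 889, 902 and 792 TPM in CSE.

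Ccne1 encodes cyclin E1, the partner of CDK2 at the entry to S phase, and lies on chromosome 7 at 38097984 to 38107534. It had 28.8, 28.5 and 24.4 normalised CPM in PBS and 36.4, 38.9 and 38.3 in CSE, on 381 to 931 counts per library. The groups did not overlap. Ccne1 rose by 0.48 ± 0.09 on the log2 scale (edgeR adjusted p = 0.00554, 95% interval 0.28 to 0.68), from 23.9 ± 1.21 to 31.9 ± 1.33 TPM (SD, n = 3), and kept its call under all 18 alternatives. Its paralog Ccne2, encoding cyclin E2, had 43.0, 45.1 and 44.2 normalised CPM in PBS and 49.2, 43.4 and 48.2 in CSE. These ranges overlap, and Ccne2 was not called at 0.09 ± 0.08 (edgeR adjusted p = 0.526, interval −0.08 to 0.26).

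E2f2 encodes an activator E2F and lies on chromosome 4 at 136172394 to 136196057. It had 24.9, 22.0 and 26.4 normalised CPM in PBS and 19.2, 18.9 and 18.6 in CSE, and the groups did not overlap. E2f2 fell by 0.37 ± 0.10 (edgeR adjusted p = 0.0324), from 8.53 to 6.14 TPM. The call was lost without PBS replicate 1 (edgeR adjusted p = 0.0593), PBS replicate 3 (0.121), CSE replicate 1 (0.0797), CSE replicate 2 (0.121) or CSE replicate 3 (0.123), while the fitted changes in these 5 fits stayed between −0.39 and −0.31. It was also lost with a GC and length trend taken out, which left a change of −0.20 (edgeR adjusted p = 0.182), with the replicate number as a block (0.0841), and with limma on log2(TPM + 1) (0.111) and log2(TPM + 0.1) (0.104), so that 9 of 18 alternatives called E2f2. Another activator, E2f1, had 48.1, 49.9 and 43.0 normalised CPM in PBS and 45.2, 47.6 and 42.7 in CSE. Its groups overlapped and it was not called at −0.05 ± 0.08 (edgeR adjusted p = 0.729, interval −0.24 to 0.13). E2f3, which is not a member, also had overlapping groups and was not called (0.02 ± 0.08, edgeR adjusted p = 0.891). Rb1, the retinoblastoma gene, had 21.7, 26.1 and 25.0 normalised CPM in PBS and 25.2, 25.7 and 23.1 in CSE, again overlapping (0.02 ± 0.10, edgeR adjusted p = 0.916, interval −0.19 to 0.24).

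**Figure D1:**
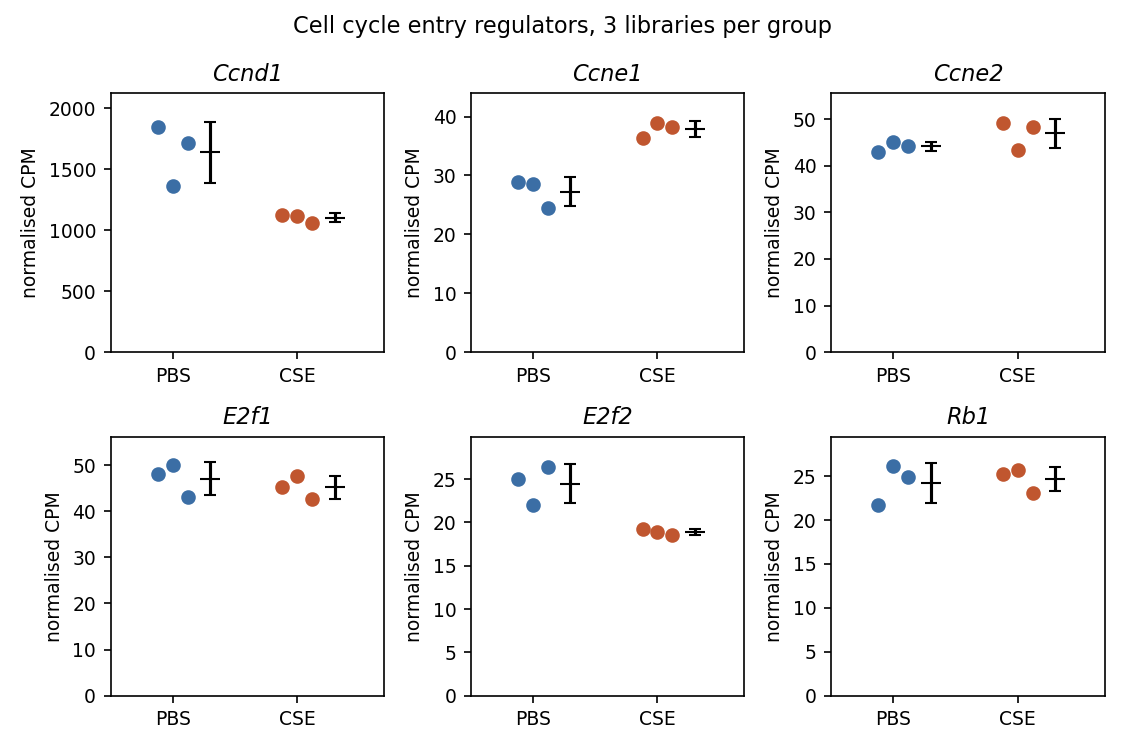
Normalised CPM (vertical axes, from 0) of the 6 cell cycle entry regulators in each library; points are libraries, and the black mark with bars is the mean ± SD of 3. The CSE points of Ccnd1 and E2f2 lie below, and those of Ccne1 above, all PBS points, while Ccne2, E2f1 and Rb1 overlap.

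Paralogs were also compared with each other within a library, which removes the library scaling. The ratio of Ccne1 to Ccne2, in TPM, was 0.910, 0.801 and 0.756 in PBS and 0.896, 1.13 and 1.12 in CSE, and the groups overlapped. On normalised CPM, the log2 ratio was higher by 0.39 on average, and its CSE values all exceeded its PBS values. The log2 ratio of E2f2 to E2f1 was lower by 0.31 (means −1.26 in CSE and −0.94 in PBS), and that of Ccnd1 to Ccnd2 was lower by 0.38 (0.31 and 0.69), both without overlap. Each of these 3 pairs gave a two-sided exact permutation p of 0.1 (0.1 adjusted over the 3), which is the smallest that 3 against 3 libraries allow. The pairs include genes already called, so the ratios are no separate evidence of those changes.

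Of the 29 machinery genes, none was called by edgeR, against 11.4% of all genes tested, and DESeq2 and limma-voom called 0 as well (against 12.8% and 11.6% of all genes). Testing genes with a mean of at least 5 CPM alone, edgeR again called 0, against 14.2% of those genes. At an unadjusted p under 0.05 there were 3, namely Pole, Chaf1a and Tk1, where 26% of all genes passed. The fitted changes of the 29 lay between −0.20 and 0.17 on the log2 scale, with a median of 0.03, against 0.01 for all genes. Without its sign, the median change was 0.06, against 0.16 for all genes and 0.12 for 91 other genes of the replication pathway. With limma on either TPM scale the signed median of the 29 was −0.04, against −0.06 for all genes. The groups did not overlap for 5 of the 29 (17.2%, against 31.2% of all genes). Every CSE value was higher for Mcm6 and Tk1, a direction in which 15.1% of all genes stood apart, and lower for Pole, Chaf1a and Chaf1b, against 16.2%.

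How large a change remained possible was read from each gene's own 95% interval. The standard errors of the 29 lay between 0.07 and 0.14 with a median of 0.07, against 0.11 for all genes tested. All 29 intervals lay within a 1.5-fold change in either direction, which held for 65.7% of all genes. Between a fold of 0.8 and its reciprocal lay 24 of 29, against 31.7% of all genes. Among 91 other genes of the replication pathway, described below, the shares were 97.8% and 53.8%. Of the 29 intervals, the widest reached a fold of 1.33 (Gins1, the member with fewest counts) and the lowest bound was a fold of 0.778 (Pole). Summed over the 29 genes, the level was 6097, 5761 and 5735 normalised CPM in PBS and 6053, 5955 and 6042 in CSE, and the PBS range held every CSE value. In TPM the sums were 4588, 4745 and 4705 in PBS and 4692, 4523 and 4411 in CSE, which also overlapped.

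**Figure D2:**
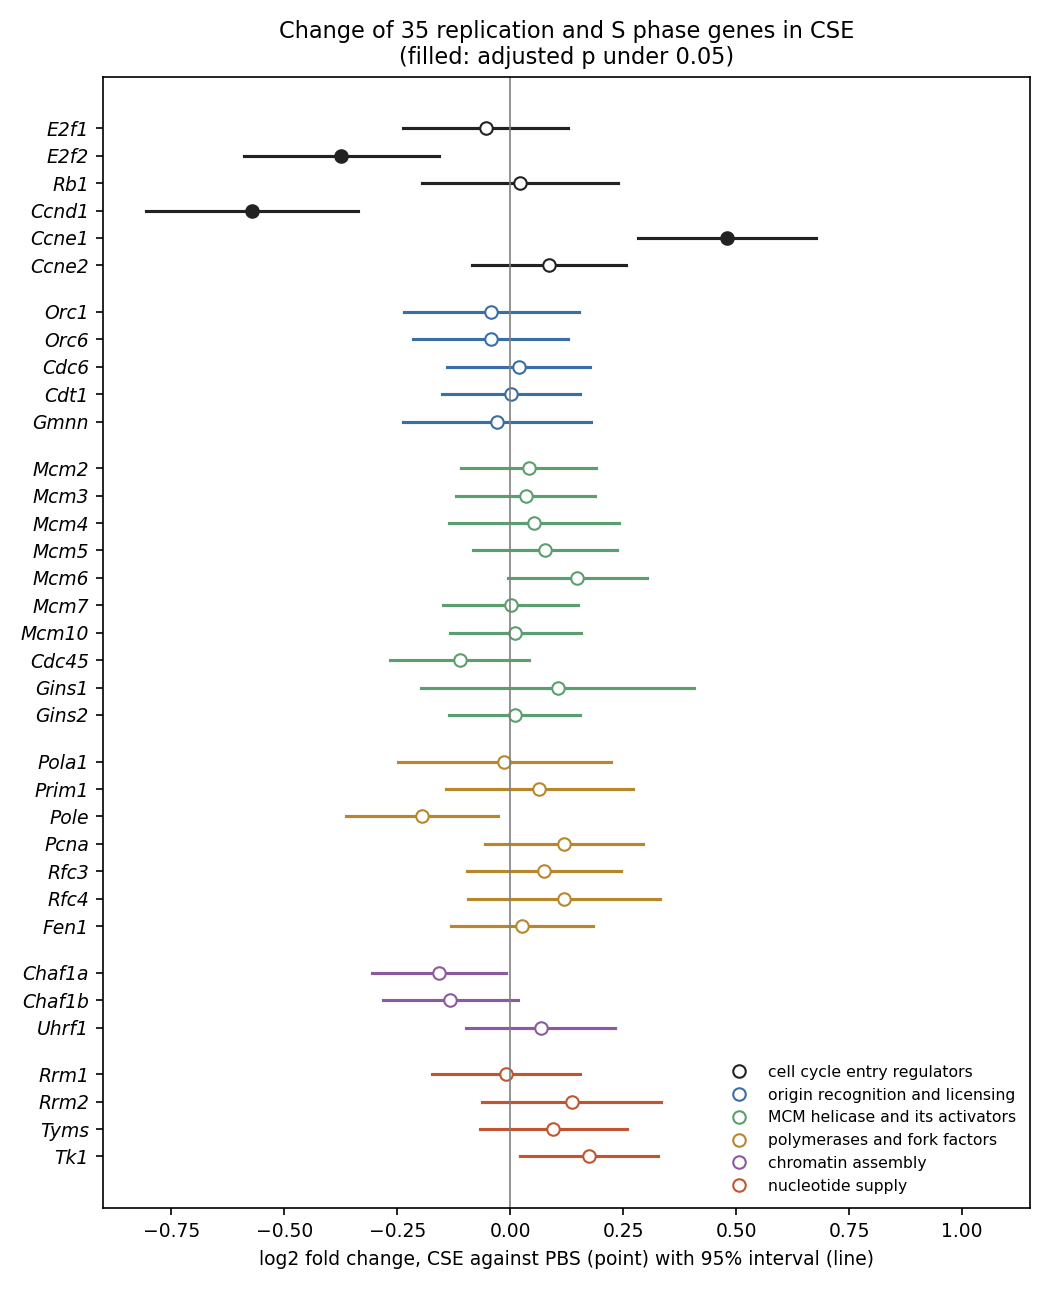
Log2 fold change of CSE against PBS (horizontal axis) for each of 35 genes, with its 95% interval, ordered and coloured by role; filled points passed the threshold. The 3 filled points are E2f2, Ccnd1 and Ccne1, and the machinery genes lie between −0.20 and 0.17.

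Origin recognition and licensing was represented by Orc1 and Orc6, subunits of the origin recognition complex, the loaders Cdc6 and Cdt1, and geminin, Gmnn. Changes lay between −0.04 and 0.02 and every pair of groups overlapped. Orc6, with the smallest p of the 5, had 138.1, 139.8 and 135.5 normalised CPM in PBS and 124.4, 129.1 and 147.6 in CSE (−0.04 ± 0.08, edgeR adjusted p = 0.775). The CSE libraries of Orc6 lay on both sides of the PBS range. In TPM, Orc6 was the most abundant of the 5 in PBS at 209.7 and Orc1 the least at 27.5, while Cdt1 stood at 159 and its inhibitor Gmnn at 107.

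The MCM ring and its activators held 10 genes, none of them called. Mcm6 had 344.5, 316.9 and 317.4 normalised CPM in PBS and 372.8, 351.6 and 360.7 in CSE, and the groups did not overlap, but the change of 0.15 ± 0.07 did not pass (edgeR adjusted p = 0.209, interval −0.01 to 0.30). The other 5 ring subunits, Mcm2, Mcm3, Mcm4, Mcm5 and Mcm7, had changes between 0.00 and 0.08 and overlapping groups. Summed over all transcripts of a gene, the 6 subunits ranged in PBS from 124 TPM (Mcm4) to 366 TPM (Mcm3). Only 46.5% of the Mcm3 level fell on its protein-coding transcript Mcm3-201, at 170.3 TPM. The protein-coding transcript Mcm7-201 had 280.6 TPM, so the order of the subunits depends on the transcripts counted. Together the 6 subunits summed to 1431 to 1497 TPM in PBS and 1372 to 1527 TPM in CSE. The origin-firing factor Mcm10 (0.01 ± 0.07), Cdc45 (−0.11 ± 0.07), Gins1 (0.10 ± 0.14) and Gins2 (0.01 ± 0.07) were not called either. For Mcm7, 47.7% of the 31-base words occur elsewhere, chiefly in Gm5487, which had 1 count in total.

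**Figure D3:**
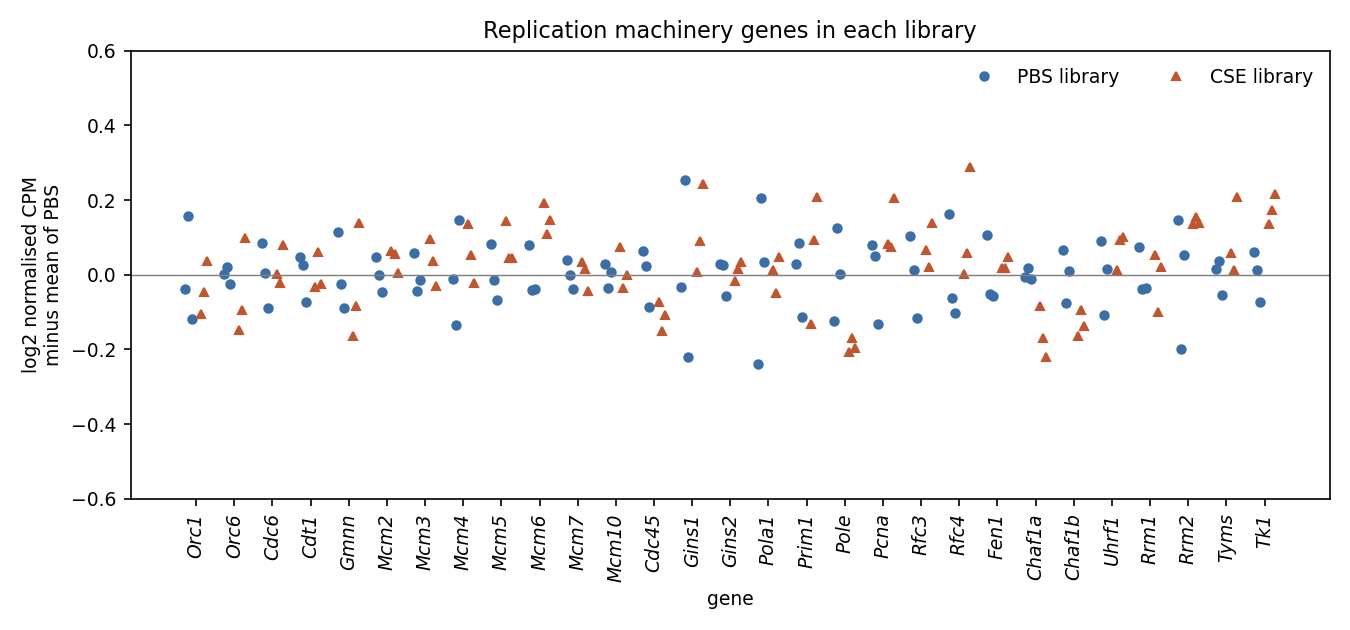
Log2 normalised CPM of each library minus the mean of the PBS libraries (vertical axis) for 29 machinery genes (horizontal axis), with PBS libraries as circles and CSE libraries as triangles. Triangles stand apart from circles for Mcm6, Pole, Chaf1a, Chaf1b and Tk1 and mix with them for the other 24 genes.

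Polymerase and fork genes comprised Pola1 and Prim1, which encode subunits of the polymerase alpha and primase complex, Pole, the catalytic subunit of the leading-strand polymerase, the sliding clamp Pcna, its loader subunits Rfc3 and Rfc4, and the flap endonuclease Fen1. Pole had 108.8, 129.3 and 118.7 normalised CPM in PBS and 102.8, 105.4 and 103.5 in CSE, without overlap. Its change of −0.20 ± 0.08 did not pass (edgeR adjusted p = 0.131), but it did without PBS replicate 1 (−0.25, edgeR adjusted p = 0.0475) and when protein-coding transcripts alone were summed (−0.26, 0.0335), so its side of the threshold rests on these choices. The other 6 had changes between −0.01 and 0.12 and overlapping groups. Pcna, often used as a proliferation marker, stood at a mean TPM of 298 in PBS and 303 with CSE (log2 change 0.12 ± 0.08, edgeR adjusted p = 0.375, interval −0.06 to 0.29).

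The chromatin genes were Chaf1a and Chaf1b, subunits of the factor that deposits histones behind the fork, and Uhrf1, which recruits the maintenance DNA methyltransferase. Chaf1a had 141.7, 144.0 and 141.2 normalised CPM in PBS and 134.2, 126.5 and 122.2 in CSE. It was lower in every CSE library, but its change of −0.16 ± 0.07 did not pass (edgeR adjusted p = 0.166), and 47.1% of its words occur in other genes, chiefly Ubxn6 on the opposite strand (0.01 ± 0.08). Chaf1b had a like value, −0.13 ± 0.07 (edgeR adjusted p = 0.252), and Uhrf1 stood at 0.07 ± 0.07.

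Nucleotide supply was represented by the ribonucleotide reductase subunits Rrm1 and Rrm2, thymidylate synthase, Tyms, and thymidine kinase, Tk1. Tk1 had 202.9, 196.2 and 185.0 normalised CPM in PBS and 213.6, 219.4 and 226.1 in CSE. Every CSE library was higher, yet the change of 0.17 ± 0.07 did not pass (edgeR adjusted p = 0.135, interval 0.02 to 0.33). In TPM summed over all its transcripts, the groups overlapped at 279 to 328 and 287 to 319. Its protein-coding transcript Tk1-201 had 203.0, 193.4 and 197.9 TPM in PBS and 233.4, 214.6 and 225.2 in CSE, without overlap. Tk1 was called in 0 of 18 alternatives. The other 3 lay between −0.01 and 0.14 with overlapping groups.

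Estimated transcripts differed in kind between members. In 25 of 35 genes, at least 80% of the PBS TPM fell on transcripts annotated as protein-coding. Tyms had 21.5% on coding transcripts in PBS and 19.2% in CSE, Gins2 29.2% and 32.9%, Mcm10 34.5% and 32.8%, Pole 37.5% and 33.9%, and Mcm3 46.5% and 44.1%, with most of the rest of the last 4 on transcripts with a retained intron. Gene-level TPM of these genes is therefore not the level of coding mRNA. Of the 35 genes, the groups did not overlap in coding share for 1 that was higher in CSE (Gins1) and 1 that was lower (Pola1). For Gins1 the share was 66.1%, 64.2% and 63.4% in PBS and 75.2%, 75.2% and 74.2% in CSE. For Pola1 it was 81.8%, 82.8% and 92.2% in PBS and 78.8%, 81.7% and 81.6% in CSE. Both were chosen after their values were seen. No test was made of coding shares, and they were not compared with those of all genes.

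Other genes of the pathway were listed by role, and all 91 were tested. Of these, 7 rose and 3 fell (11.0%, against 11.4% of all genes), with a median change of 0.06. Among cell cycle entry genes, E2f7, an atypical E2F that acts as a repressor, fell by 0.34 ± 0.08 (edgeR adjusted p = 0.0227), from 47.9, 49.9 and 50.9 to 36.9, 43.0 and 37.0 normalised CPM, and the other 19 of 20 were not called. None of 16 further origin and firing genes was called by edgeR, where 3 had an unadjusted p under 0.05, against 26% of all genes. Orc5, a subunit of the origin recognition complex (0.25 ± 0.07, edgeR adjusted p = 0.0557), was called higher when protein-coding transcripts alone were summed.

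Of 7 CDK inhibitors, 1 rose, 1 fell and 5 were not called (28.6% called, against 11.4% of all genes). Cdkn1a, which encodes p21, rose by 0.40 ± 0.07 (edgeR adjusted p = 0.00303), from 70.2, 62.8 and 66.7 to 87.6, 88.8 and 87.6 normalised CPM. Cdkn2c, which encodes an inhibitor of CDK4 and CDK6, fell by 0.31 ± 0.09 (edgeR adjusted p = 0.0440), from 197.3, 159.2 and 176.5 to 135.9, 147.2 and 147.1 normalised CPM. The call of Cdkn2c was kept in 1 of 6 fits with a library left out (without PBS replicate 2) and was lost with the replicate number as a block (edgeR adjusted p = 0.113). For both genes the groups did not overlap, which held for 31.2% of all genes. The other 5 inhibitors, Cdkn1b, Cdkn1c, Cdkn2a, Cdkn2b and Cdkn2d, were not called, at −0.16 to 0.05.

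In the polymerase and fork lists, the polymerase epsilon subunit Pole4 rose by 0.37 ± 0.07, the fork protection gene Timeless by 0.27 ± 0.07 and topoisomerase I, Top1, by 0.30 ± 0.07, while the clamp loader gene Chtf18 fell by 0.25 ± 0.07. The histone chaperone Asf1a rose by 0.41 ± 0.10, Cdca7, a partner of the chromatin remodeller HELLS, by 0.30 ± 0.06 and Impdh2, an enzyme of guanine nucleotide synthesis, by 0.37 ± 0.09. For Impdh2, 78.3% of the words occur elsewhere, chiefly in a pseudogene with 8 counts. The number called depended on single libraries: it was 12 without PBS replicate 1, 7 without PBS replicate 2, 4 without PBS replicate 3, 4 without CSE replicate 1, 2 without CSE replicate 2 (Cdkn1a and E2f7) and 1 without CSE replicate 3 (Cdkn1a). Of the 10, Cdkn1a alone was called under all 18 alternatives, and Chtf18 under 7.

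**Figure D4:**
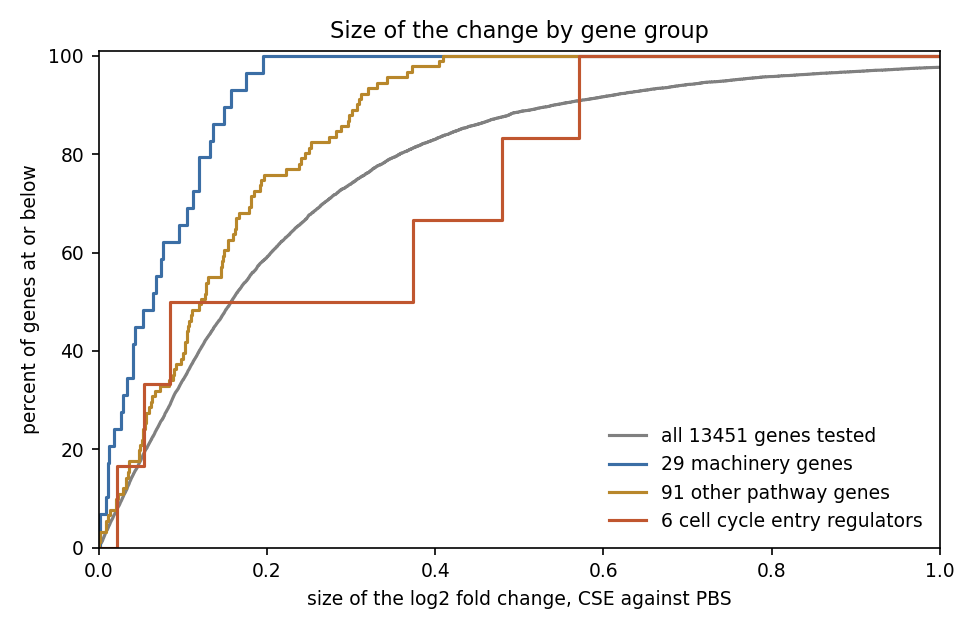
Cumulative percent of genes (vertical axis) with a log2 fold change of at most the given size, in either direction (horizontal axis), for all genes tested, 29 machinery genes, 91 other pathway genes and 6 regulators. The machinery line reaches 100% at 0.20, where the median of all genes is 0.16, and the regulators reach 0.57.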

How the data were processed

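PolyA RNA of 6 libraries was sequenced, and groups and replicate numbers came from the sample titles. For 118489 transcripts, the deposited tables hold estimated counts and TPM, per the file headers, in columns laid out as kallisto writes them. The deposited TPM values have one common sum per library and so carry no depth. Tools in the submitters' processing notes are fastp 0.20.1, FastQC 0.12.1, kallisto 0.46.2 and DESeq2 1.40.2, with GRCm38 as the build and no roles; strand, trimming and index settings are not stated there.

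Estimated counts were summed over 116816 transcripts matched to GENCODE vM21 (36047 genes) and rounded. The 1673 unmatched transcripts held 0.638% to 0.664% of a library. Genes passing filterByExpr (minimum count 10) were normalised by TMM (factors 0.976 to 1.03) and tested two-sided with edgeR's quasi-likelihood test, treatment as the only factor, with Benjamini-Hochberg adjustment over all 13451 genes and a threshold of 0.05. The standard error is the fold change over the root of the F statistic, and 95% intervals use its degrees of freedom, gene by gene. At these depths 3 counts correspond to 0.125 to 0.248 CPM. Libraries of a group were not duplicates (chi-square per degree of freedom 5.61 to 17.7).

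The members and all lists were chosen with earlier results of these data known. Values per library were given for the regulators, called members and the member of smallest p in each role, and pathway genes were named where called, with the CDK inhibitors. Further values of Ccnd2, Ccnd3, E2f3, Orc5, members whose groups did not overlap and single transcripts of Tk1, Mcm3 and Mcm7 were chosen after their values were seen. Shared sequence was measured as 31-base words found in transcripts of other genes on either strand.

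The alternatives tried were DESeq2, limma-voom, scaling by RLE or by library size, testing without a filter or with genes averaging at least 5 CPM, effective length as an offset, removal of a GC and length trend (loess, span 0.5), limma on log2(TPM + 1) and log2(TPM + 0.1) (minimum mean 1 TPM), leaving out each library, blocking on the replicate number and, chosen after seeing the data, protein-coding transcripts only. On simulated counts for the 13451 genes of this comparison with 200 changed, 66% of the 1.5-fold and 88% of the 2-fold changes were found, and 9.4% of the calls were false. Fits ran in R 4.3.3 with DESeq2 1.42.0, edgeR 4.0.16 and limma 3.58.1; tables and plots used pandas 2.3.3 and matplotlib 3.10.9 under Python 3.11.15.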

Additional observations from a re-analysis of the deposited data

How the results depend on the processing

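The count of called genes over the whole table moved from 1539 to 1022 with the replicate number as a block, 998 with limma on log2(TPM + 1) and 985 with log2(TPM + 0.1), and lay between 837 and 1941 with 1 library left out (lowest without CSE replicate 3, highest without PBS replicate 1). Among the 35 members, 3 were called and 2 to 3 with 1 library left out; among the regulators 3, and 2 to 3. Among the 29 machinery genes the count of 0 became 1 with protein-coding transcripts only (Pole) and lay between 0 and 1 with 1 library left out. The machinery median of 0.03 was −0.0407 with limma on log2(TPM + 1) and −0.0409 with log2(TPM + 0.1), where the median of all genes was −0.06 in both fits, and lay between −0.00479 and 0.0671 with 1 library left out. Of the 91 pathway genes, 10 were called, against 15 with DESeq2, 15 with the GC and length trend removed, 16 with no filter, 4 and 3 with the 2 TPM fits, and 1 to 12 with 1 library left out. The causes were not tested. Same-numbered libraries did not deviate together (correlations −0.124, 0.006 and −0.059). Such correlations cannot settle whether the numbers are a pairing, which the labels do not state. With the replicate block 2 members, 2 regulators, 0 machinery genes and 3 pathway genes were called and the machinery median was 0.03. A tally covered 50 genes, namely the members, the called pathway genes and the CDK inhibitors, without Ccnd2, Ccnd3, E2f3 and Orc5. Over these and 18 alternatives (900 values), no called gene changed direction, 68 values lost a call and 2, both of Pole, gained one. A further 91 changed sign for genes called in neither fit. Gins1, with the fewest counts of the members, had the largest standard error of the 35 (0.14); the part of depth in the errors was not tested.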
